A study of Mus musculus with 10 samples.

Results

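The joints of immunoglobulin kappa light chain (Igk) transcripts were sorted by reading frame in 5 samples of small pre-B cells from the bone marrow of WT mice. A join was counted as in frame where the nucleotide length of its CDR3, the stretch that spans the V-J joint, was a multiple of 3 and no stop codon was read from its first base. It was counted as out of frame where the length was not a multiple of 3. Of 70244 WT counts, 50745 were in frame, 18853 were out of frame, and 646 were in frame with a stop and were left out. The 69598 counts of the 2 classes belong to a series of 161780 counts in 10 samples, the other 5 of which carry the genotype rsCBE. They formed 9882 in-frame and 7823 out-of-frame clonotypes, a clonotype being all counts of a sample with 1 V call, 1 J call and 1 CDR3 sequence.

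The series' design text gives the mice as C57Bl6, WT or mutant, aged 6 to 12 weeks, and writes the mutant name with a delta that the sample labels leave out. RNA came from pre-B cells purified by flow cytometry. Whether a sample is 1 animal or a pool is not stated, so p-values measure the spread between these samples, which may be technical. The table holds kappa transcripts only, and no marker of small pre-B cells or of other cells could be checked. In-frame counts of WT replicates 1 to 5 were 17436, 15230, 9566, 2037 and 6476, and out-of-frame counts were 5150, 5967, 4100, 1048 and 2588. Replicate 4 was the shallowest sample in both classes. Replicates 1 and 2 are 1 library each and replicates 3 to 5 are each the sum of parts a and b, which the labels do not describe further, so a clonotype found in both parts was counted once. Values within these sets are given for the J segments and the named V segments.

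A kappa light chain gene is made when the RAG recombinase cuts beside 1 of many V segments and 1 of the J segments and the ends are joined, with bases trimmed or added on the way. Joining ignores the reading frame, so many joints cannot encode a light chain. A joint in frame can give a protein, which pairs with the heavy chain and is tested for expression and self-reactivity, whereas a joint out of frame cannot be tested in this way. Out-of-frame joints are therefore commonly used as a picture of rearrangement before selection on the protein. A cell whose first joint fails or is self-reactive can rearrange the same allele again, with another V and a more downstream J segment.

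The 4 most frequent clonotypes of each class are shown first because they show the typical joint. Each is printed 5′ to 3′ as deposited, from the base after the cysteine codon of the V segment to the base before the phenylalanine codon of the J segment. Bases that match the J segment and not the V segment are in capitals, and bases that match the V segment or both are in lower case.
Igkv8-16 Igkj1, in frame: cagcagcatttacacattccGTGGACG
Igkv8-16 Igkj5, in frame: cagcagcatttacacattccGCTCACG
Igkv9-120 Igkj1, in frame: ctacaatatgctagttctccGTGGACG
Igkv5-39 Igkj2, in frame: caaaatggtcacagctttccGTACACG
Igkv8-16 Igkj5, out of frame: cagcagcatttacacattcctcACG
Igkv1-135 Igkj1, out of frame: tggcaaggtacacattttcctGGACG
Igkv5-43 Igkj5, out of frame: caacagagtaacagctggcctcaTCACG
Igkv8-16 Igkj1, out of frame: cagcagcatttacacattcctGGACG

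All 4 in-frame clonotypes had 27 bases, had lost 3 bases of the germline V end, and held no base that matched neither segment. The 4 out-of-frame clonotypes had 25, 26, 28 and 26 bases. Each of the 8 was found in all 5 samples. The first of them took 1.19% of in-frame counts on average, and the first out-of-frame clonotype took 0.961% of out-of-frame counts. The Igkv5-39 clonotype rested mostly on 1 sample, with 603 of its 731 counts in replicate 1.

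In-frame joins took 77.2, 71.8, 70.0, 66.0 and 71.4% of the counts of the 2 classes in replicates 1 to 5, a mean of 71.3% ± 4.02 (SD, n = 5). Of clonotypes, each counted once, 57.9% ± 4.14 (SD, n = 5) were in frame. The share of counts exceeded the share of clonotypes in 5 of 5 samples, by 13.4 percentage points (two-sided exact sign-flip p 0.0625, the smallest that 5 pairs can give). In-frame clonotypes thus held more counts each, 4.20 to 5.99 by sample, than out-of-frame clonotypes, 1.92 to 3.85. The ranges did not overlap. The labels do not say whether a count is a read or a molecule, and the part of transcript level, cell number and amplification in this gap was not tested.

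J segments were compared next. On average, J1 and J2 took larger shares in frame and J4 and J5, the downstream segments, took smaller ones. The direction held in 5 of 5 samples for J2 and J5 and in 4 of 5 for J1 and J4. J4 and J5 together made up 42.2% ± 2.60 of in-frame counts and 49.3% ± 5.68 of out-of-frame counts (SD, n = 5). The J segments lie on the forward strand of chromosome 6 of GRCm38, from Igkj1 (70722562 to 70722599) through Igkj2 (70722916 to 70722958), Igkj3 (70723223 to 70723260) and Igkj4 (70723548 to 70723585) to Igkj5 (70723886 to 70723927).

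**Figure D1:**
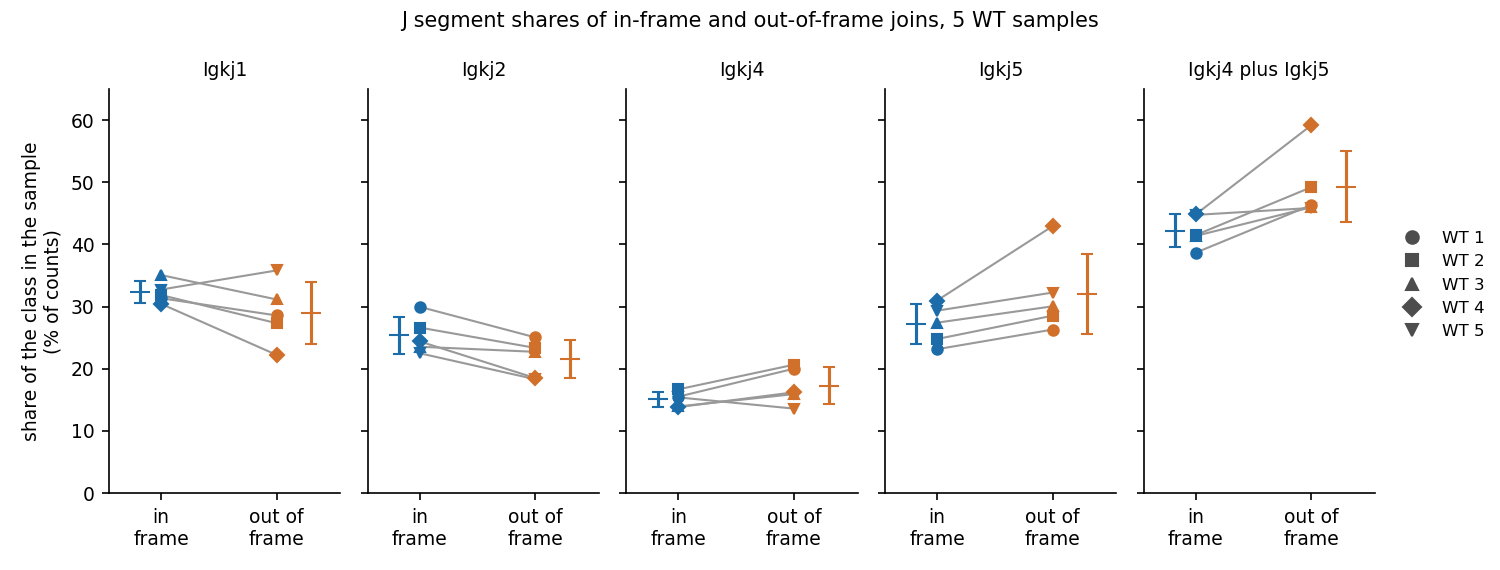
Share of each J segment (vertical axis, percent of the counts of the class in a sample) in frame and out of frame. Each marker is 1 of 5 WT samples, lines join the classes of a sample, and bars beside them give the mean and SD. Igkj2 is higher in frame and Igkj5 lower in all 5 samples, and the widest Igkj5 gap, of replicate 4, is -11.96 percentage points.

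Igkj5, the last J segment before the constant region, took 23.1, 24.8, 27.4, 31.0 and 29.4% of in-frame counts in replicates 1 to 5. Out of frame it took 26.3, 28.5, 30.05, 42.9 and 32.3%. It was lower in frame in 5 of 5 samples, by 4.88 percentage points on average (SD 3.98), with an exact sign-flip p of 0.0625 and an adjusted exact p of 0.156 over 5 J segments. In replicate 4 the difference of -11.96 lay far from the others, and without that sample the mean was -3.11. The Wilson 95% interval of the out-of-frame share in replicate 4 ran from 39.97 to 45.96%. It treats the 1048 counts as independent, though they formed 313 clonotypes, so it can be too narrow. It leaves out the spread between samples.

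Igkj2 took 29.97, 26.6, 23.6, 24.4 and 22.5% of in-frame counts and 25.1, 23.4, 22.7, 18.5 and 18.3% of out-of-frame counts. Its share was higher in frame in 5 of 5 samples, by 3.82 percentage points (SD 1.93, exact sign-flip p 0.0625, adjusted exact p 0.156). Igkj1, the first J segment, was 32.3% ± 1.76 in frame and 29.0% ± 4.996 out of frame, higher in 4 of 5 samples and lower by 3.07 percentage points in replicate 5 (exact p 0.188, adjusted 0.234). Igkj4 was 15.1% ± 1.20 and 17.3% ± 2.98, lower in 4 of 5 samples (exact p 0.125, adjusted 0.208). Its differences by replicate were -4.5, -3.96, -1.98, -2.38 and 1.79 percentage points, and without replicate 5 the mean was -3.205. For J4 plus J5 the difference was -7.09 percentage points (SD 4.88), lower in frame in 5 of 5 samples (exact sign-flip p 0.0625). By replicate it was -7.66, -7.71, -4.61, -14.34 and -1.12, and without replicate 4 the mean was -5.27.

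Since 5 pairs cannot give an exact p below 0.0625, no J segment could pass 0.05 in that test. By edgeR's paired quasi-likelihood fit of the J counts, Igkj2 was higher in frame, with a log2 fold change of 0.22 (adjusted p 0.0240), and Igkj5 lower, with -0.22 (adjusted p 0.0297). Igkj1 (0.15) and Igkj4 (-0.19) each had an adjusted p of 0.0814 in that edgeR fit. Within replicates 1 and 2 the differences were 3.65 percentage points for Igkj1, 4.09 for Igkj2, -4.23 for Igkj4, -3.46 for Igkj5 and -7.69 for J4 plus J5. Within replicates 3 to 5 they were 3.02, 3.63, -0.855, -5.83 and -6.69, where replicate 5 went the other way for Igkj1 and Igkj4. With each clonotype counted once they were 2.65, 1.46, -2.05, -2.08 and -4.13. When the V segments were given the same mix in both classes, Igkj2 differed by 3.92, Igkj5 by -3.97 and Igkj4 by -1.78, while Igkj1 shrank from 3.27 to 1.84 (exact sign-flip p 0.375).

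Igkj3 was nearly absent from both classes, at 11 in-frame and 15 out-of-frame counts in all. Its share was at most 0.0115% of in-frame counts in 4 samples and 0.344% in replicate 4. No direction was read from it.

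Out-of-frame joints come in 2 kinds, those whose length leaves a remainder of 1 when divided by 3 and those with a remainder of 2. Neither can encode the chain, so a gap between them is a gap between joints that are all out of frame. Remainder 1 held 9209 counts and remainder 2 held 9644. For Igkj1, Igkj4 and Igkj5 the mean difference between the 2 kinds was larger than that between the in-frame class and the out-of-frame class as a whole, and for Igkj2 it was smaller.

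Igkj1 took 19.8, 17.7, 19.9, 17.7 and 22.8% of remainder 1 counts in replicates 1 to 5. Of remainder 2 counts it took 36.9, 36.6, 41.6, 27.7 and 47.8%. The values did not overlap, and the mean difference was -18.54 percentage points, lower in remainder 1 in 5 of 5 samples (exact sign-flip p 0.0625, adjusted exact p 0.104). Igkj5 took 37.3% ± 6.39 of remainder 1 and 27.0% ± 7.86 of remainder 2 (SD, n = 5), higher in remainder 1 in 5 of 5 samples by 10.4 percentage points. Igkj4 took 20.4% ± 3.47 and 14.2% ± 2.65, a difference of 6.22 in the same direction in 5 of 5 samples, and both had an exact p of 0.0625 and an adjusted exact p of 0.104. With each clonotype counted once the differences were -12.8 for Igkj1, 4.996 for Igkj4 and 4.83 for Igkj5. Igkj2 took 22.6% ± 4.20 and 20.7% ± 2.36 (exact p 0.25, adjusted 0.312).

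**Figure D2:**
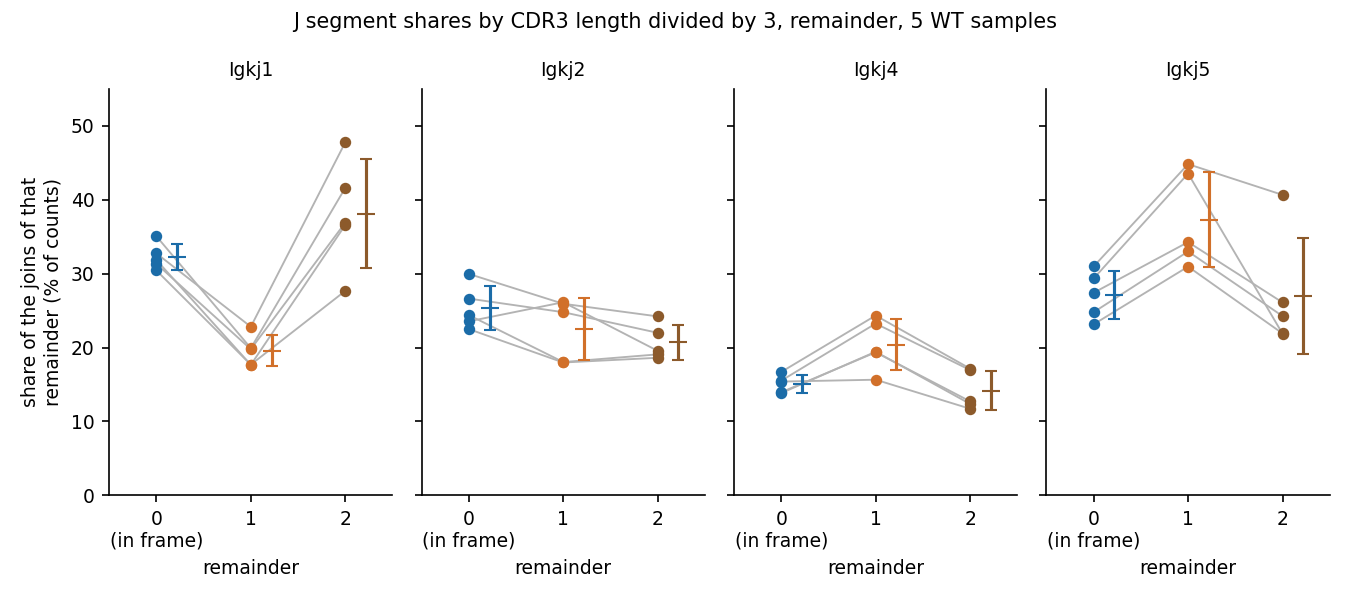
Share of 4 J segments (vertical axis, percent of the counts with that remainder in a sample) against the remainder of the CDR3 length divided by 3 (horizontal axis). Dots are the 5 WT samples, lines join the values of a sample, and bars give the mean and SD. The mean of Igkj1 in frame, 32.3%, lies between 19.6% for remainder 1 and 38.1% for remainder 2, and in replicate 4 the in-frame value of 30.4% lies above both others.

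In-frame joins were also set against each out-of-frame kind alone. Against remainder 1 alone, in-frame joins differed by 12.7 percentage points in Igkj1, -10.2 in Igkj5 and -15.5 in J4 plus J5. Against remainder 2 alone the mean differences were -5.82 (exact sign-flip p 0.125), 0.171 (exact p 0.938) and 1.07 (exact p 0.688), and the samples disagreed in sign for all 3. For Igkj5 the differences by replicate were 1.24, 0.531, 1.31, -9.69 and 7.47 percentage points, so that the mean near 0 rested on replicate 4. Without that sample Igkj1 differed by -7.96, Igkj5 by 2.64 and J4 plus J5 by 3.39 (exact p 0.125, 0.125 and 0.375, where the smallest possible with 4 pairs is 0.125). Igkj2 had a mean difference of 2.84 against remainder 1 (exact p 0.188), where replicate 3 went the other way, at 23.6% in frame and 26.1% in remainder 1, and of 4.72 against remainder 2, in 5 of 5 samples (exact p 0.0625). Igkj4 and Igkj5 have germline ends of attcacg and gctcacg in the CDR3, which share their last 5 bases, and a trimmed joint can match both.

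The structure of the joint was read by matching each CDR3 to the germline V and J ends in the GRCm38 annotation. This was possible for 94.3 to 95.8% of in-frame counts and 92.0 to 94.9% of out-of-frame counts over the 5 samples. Bases that match both ends were credited to both, which lowers the losses given. At least 9 V bases had to match, and matching from either end stopped at the first mismatch. Germline bases beyond a single changed base were therefore counted as lost, which raises the losses given. All shares of joint forms below are of the counts that could be read. Frame is fixed by these lengths, so the values are a description and carry no test.

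The most frequent form in frame was the loss of exactly 3 V bases. It made up 48.8% ± 2.37 of in-frame counts (range 46.5 to 52.5% over samples) and 16.9% ± 1.05 of out-of-frame counts (SD, n = 5). Loss of 3 V bases with the J end whole was 28.7% ± 0.571 of in-frame and 1.13% ± 0.464 of out-of-frame counts. Out-of-frame joints were spread over losses of 0, 1, 2 and 3 V bases, at 20.8, 20.1, 17.5 and 16.9%. The length followed, since 77.2% ± 3.02 of in-frame counts had a CDR3 of 27 bases and 13.4% ± 1.32 had 24. Out of frame, 24.7% had 26 bases, 21.7% had 25, 19.4% had 28 and 15.4% had 29.

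The J end was whole in 47.1% ± 1.11 of in-frame counts and 33.7% ± 1.75 of out-of-frame counts (SD, n = 5). No base was left unmatched in 89.5% ± 1.06 of in-frame and 76.2% ± 1.39 of out-of-frame counts. Runs shared by the V and J ends differed by length. A run of 1 shared base was found in 25.2% ± 0.998 of out-of-frame and 12.4% ± 0.501 of in-frame counts, and a run of 3 in 8.49% ± 2.02 and 0.315% ± 0.108. Runs of 2 were equally frequent, at 5.32% ± 1.65 and 5.35% ± 0.891, and runs of 4 nearly so, at 0.973% ± 0.162 and 0.862% ± 0.294. The most frequent out-of-frame clonotype, Igkv8-16 with Igkj5 in the sequences above, is of this kind, with 3 shared bases. With each clonotype counted once, in-frame joints had on average 0.606 more unmatched bases than out-of-frame joints, where by counts the difference was -0.186. The J end reversed as well, with a difference in J bases lost of -0.303 by counts and 0.0761 by clonotypes. A clonotype with a changed base inside its V or J part scores extra lost and unmatched bases by this matching. The part of such clonotypes in both reversals was not tested.

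**Figure D3:**
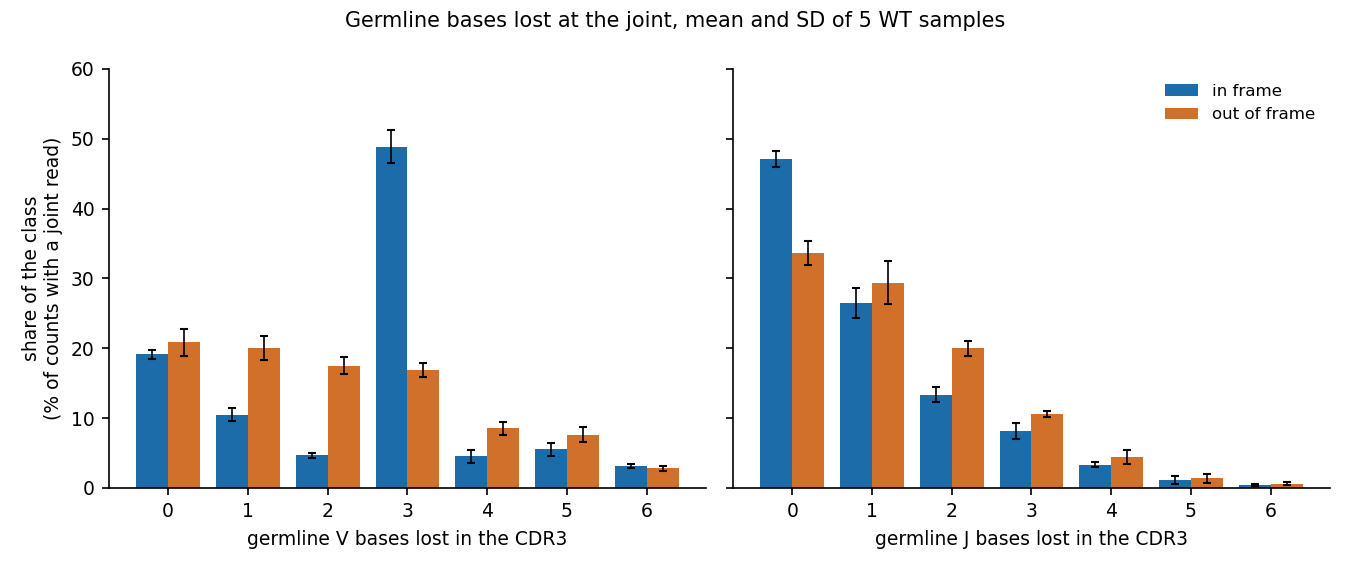
Share of counts (vertical axis, percent of the counts of the class whose joint could be read) against the number of germline V bases (left) and J bases (right) missing from the CDR3. Bars are means of 5 WT samples and error bars are SD. A loss of 3 V bases stands out in frame, at 48.8% against 16.9% out of frame.

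V segments were compared between the classes in 1 edgeR fit with the sample as a block. Of 112 V segments measured in WT, 81 had enough counts to be tested, and edgeR called 11 of them, 13.6% of those tested, at a Benjamini-Hochberg adjusted p under 0.05. The share was higher in frame for 4 of them (4.94% of those tested) and lower for 7 (8.64%). The called segments lower in frame were Igkv5-43, Igkv4-92, Igkv6-15, Igkv8-24, Igkv4-77, Igkv8-18 and Igkv1-135, and those higher were Igkv14-126, Igkv6-32, Igkv8-27 and Igkv9-120. For 9 of the 11 the sign was the same in all 5 samples, and for Igkv1-135 and Igkv8-18 in 4 of 5. The same sign in all 5 samples was found for 9 tested segments higher in frame (11.1%) and 11 lower (13.6%). The median log2 fold change over the 81 was 0.02.

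The number of calls differed with the out-of-frame joints used and with single samples left out. Against remainder 2 alone edgeR called 0 of 65 segments (8 at an unadjusted p under 0.05), and against remainder 1 alone 4 of 63. These fits hold fewer out-of-frame counts, and a lost call there does not show a smaller difference: against remainder 2 alone the log2 changes of Igkv1-135 (-0.63) and Igkv14-126 (1.52) were larger than in the fit of all joins, and those of Igkv5-43 (-0.56) and Igkv4-92 (-0.52) smaller. It called 0 of 92 within replicates 1 and 2 (15 unadjusted) and 0 of 81 with no sample block (12 unadjusted). With a robust estimate of the spread it called 4 higher and 5 lower, without Igkv1-135 (adjusted p 0.0768). With replicates 1, 2, 3, 4 and 5 left out in turn, edgeR called 2, 1, 4, 11 and 3 segments. Igkv5-43 was the only segment called in all 5 of these fits, and it was the 1 segment called without replicate 2. How the authors resolved reads between similar members of a family is not stated, so counts of single members are uncertain.

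Igkv5-43 (chromosome 6, 69823355 to 69823943 of GRCm38, reverse strand, joined to J by inversion) had the smallest adjusted p of the 81. It took 3.83, 3.13, 1.73, 0.933 and 1.096% of in-frame counts in replicates 1 to 5. Out of frame it took 7.36, 9.502, 3.71, 3.63 and 4.64%. Every sample was lower in frame, and the 2 sets of values overlapped only through replicate 1, whose in-frame share exceeded the out-of-frame shares of replicates 3 and 4. On the log2 scale edgeR gave a change of -1.495 ± 0.19 (SE, adjusted p 3.41e-12). In this fit edgeR estimated a spread common to all V segments, on which so small a p from 5 samples rests. It was -1.27 within replicates 1 and 2 and -1.69 within replicates 3 to 5, and -0.74 with each clonotype counted once (edgeR adjusted p 8.83e-05).

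Igkv5-43 had 1400 in-frame and 1256 out-of-frame counts, and its in-frame share per sample was 63.8, 45.7, 52.1, 33.3 and 37.2%. Its out-of-frame counts were mostly of remainder 1, at 39.4% ± 11.1 of the counts of this segment, against 14.2% ± 3.78 of remainder 2 (SD, n = 5). Over all V segments the 2 remainders held 14.3% ± 2.68 and 14.4% ± 1.57. Igkv5-43 was the only V segment of 55 tested that differed between the remainders by edgeR (1.82% of those tested), at 1.48 ± 0.28 on the log2 scale (SE, adjusted p 1.6e-05). Against remainder 2 alone, its in-frame share differed by a log2 fold change of -0.56 that did not pass (edgeR adjusted p 0.363), and against remainder 1 alone it was -2.06 (edgeR adjusted p 1.57e-05).

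The V end of Igkv5-43 was often whole. No V base was lost in 49.8% ± 11.3 of its out-of-frame counts, against 20.8% ± 1.98 over all segments out of frame, and in 21.8% ± 6.47 of its in-frame counts (SD, n = 5). Its family member Igkv5-39, named here after its values were seen because it gave a frequent in-frame clonotype, kept the whole end in 9.42% ± 9.96 of out-of-frame counts. The sequences show the difference between the segments' ends and the 2 typical Igkv5-43 joints.
Igkv5-43, germline end: caacagagtaacagctggcctca
Igkv5-39, germline end: caaaatggtcacagctttcctcc
Igkv5-43 Igkj5, in frame: caacagagtaacagctggccGCTCACG
Igkv5-43 Igkj5, out of frame: caacagagtaacagctggcctcaTCACG
The in-frame joint lost 3 V bases and no J base and had 159 counts. The out-of-frame joint lost no V base and 2 J bases and had 180 counts. The same out-of-frame bases were also deposited with an Igkj4 call, with 55 counts, since Igkj4 and Igkj5 end alike.

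Igkv4-92 (chromosome 6, 68755038 to 68755593, reverse strand, inversion) had the next smallest adjusted p, together with Igkv14-126. It took 0.631, 1.083, 0.753, 1.32 and 0.772% of in-frame counts against 2.33, 3.34, 1.32, 1.81 and 1.20% out of frame, lower in 5 of 5 samples. edgeR's log2 change was -1.14 ± 0.31 (SE, adjusted p 0.00766), with -1.75 within replicates 1 and 2 and -0.64 within replicates 3 to 5. Of the 5 fits that left out a sample, 3 called Igkv4-92. In all, 54.1% ± 7.16 of its joins were in frame, and 30.7% ± 5.34 were of remainder 1. Its germline end has 24 bases in the CDR3, where 72 of the 112 V segments have 23.

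Igkv6-15 (70406469 to 70406992, reverse strand, inversion) took 0.695% ± 0.247 of in-frame and 1.46% ± 0.538 of out-of-frame counts, lower in 5 of 5 samples. By edgeR this was a log2 change of -1.083 ± 0.36 (SE, adjusted p 0.0284). Igkv4-77 (69110904 to 69111432, reverse strand), which GENCODE lists as a pseudogene, took 0.208% ± 0.129 and 0.675% ± 0.314, with a log2 fold change of -1.70 ± 0.56 (SE, edgeR adjusted p 0.0284) on 90 in-frame and 107 out-of-frame counts. Within replicates 1 and 2 they were at -1.27 and -1.83, and within replicates 3 to 5 at -0.95 and -1.63. Of the 5 fits that left out a sample, 2 called Igkv6-15 and 1 called Igkv4-77.

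Igkv8-24 (70216858 to 70217421, reverse strand, inversion) had its gap mostly in 1 sample. Its in-frame share per sample was 68.5, 69.4, 58.2, 11.9 and 65.8%, so that replicate 4 stood apart. The log2 fold change was -0.89 ± 0.29 (SE, edgeR adjusted p 0.0284), and -0.48 without replicate 4 (edgeR adjusted p 0.201). It was -0.40 within replicates 1 and 2, -1.34 within replicates 3 to 5, and -0.15 against remainder 2 alone (edgeR adjusted p 0.819). With each sample left out in turn it was called 0 times, at edgeR adjusted p from 0.0565 to 0.201.

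On the other side, Igkv14-126 (67896172 to 67896642, forward strand, joined by deletion) had the largest rise of the 4 called higher. It took 4.21, 1.35, 0.993, 1.57 and 0.973% of in-frame counts and 1.17, 0.704, 0.512, 1.34 and 0.155% of out-of-frame counts. It was higher in frame in every sample, narrowly so in replicate 4. The log2 fold change was 1.27 ± 0.34 (SE, edgeR adjusted p 0.00766), with 1.42 within replicates 1 and 2 and 1.16 within replicates 3 to 5, and 84.2% ± 9.82 of its joins were in frame. It was called in 2 of the 5 fits that left out a sample.

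Igkv6-32 (70074024 to 70074603, reverse strand, inversion) took 2.22% ± 0.611 of in-frame and 1.24% ± 0.394 of out-of-frame counts, a log2 fold change of 0.86 ± 0.28 (SE, edgeR adjusted p 0.0284). Igkv8-27 (70171809 to 70172270, reverse strand, inversion), whose germline V end has 18 bases in the CDR3, took 3.41% ± 0.410 and 2.11% ± 0.504, with 0.70 ± 0.22 (SE, edgeR adjusted p 0.0284). Igkv9-120 (68049983 to 68050456, forward strand, deletion) took 3.76% ± 0.663 and 2.53% ± 0.680, with 0.60 ± 0.20 (SE, edgeR adjusted p 0.0309). Each was higher in frame in 5 of 5 samples, with 81.6% ± 4.86, 80.3% ± 3.78 and 78.8% ± 6.01 of joins in frame. They were at 0.51, 0.61 and 0.59 within replicates 1 and 2 and at 1.13, 0.77 and 0.61 within replicates 3 to 5. Of the 5 fits that left out a sample, 1, 3 and 1 called them.

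**Figure D4:**
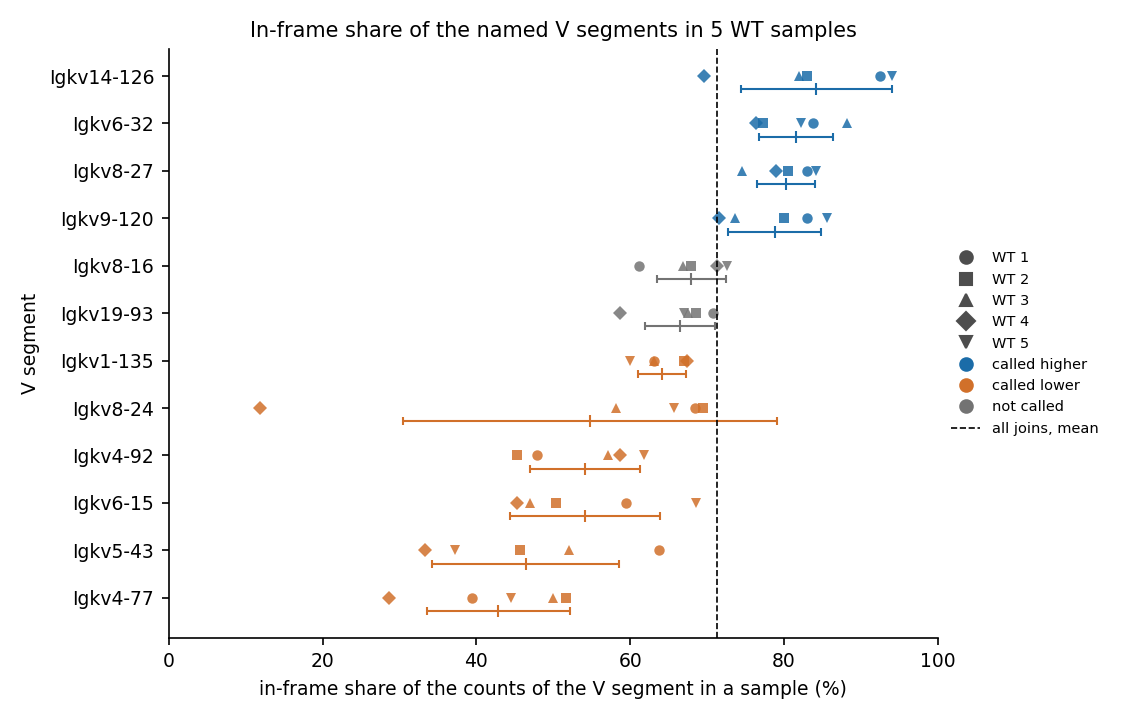
In-frame share of the counts of each named V segment (horizontal axis, percent of its in-frame and out-of-frame counts). Markers are the 5 WT samples, bars below them give the mean and SD, colour shows the edgeR call, and the dashed line is the mean in-frame share of all joins, 71.3%. Igkv4-77 and Igkv5-43 have the lowest means and replicate 4 of Igkv8-24 lies apart at 11.9%.

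The segment with the highest mean share over samples, Igkv8-16 (70386672 to 70387252, reverse strand, inversion), took 6.52% ± 4.32 of in-frame and 6.71% ± 3.62 of out-of-frame counts. Its log2 fold change was -0.23 ± 0.15 (SE, edgeR adjusted p 0.319), and it changed sign between replicates 1 and 2 (-0.69) and replicates 3 to 5 (0.07). Igkv19-93 (68736297 to 68736780, reverse strand, inversion) took 4.42% ± 1.12 and 5.57% ± 1.47, lower in frame in 5 of 5 samples, with a log2 fold change of -0.32 ± 0.16 that did not pass (SE, edgeR adjusted p 0.216) but was just called with TMM normalization (-0.36, edgeR adjusted p 0.0495), and it was at -0.36 within replicates 1 and 2 and -0.30 within replicates 3 to 5. In replicates 1 and 2 Igkv19-93 was the more used of the 2, at 5.30 and 5.85% of in-frame counts against 1.47 and 2.38%, and it also had more counts over all 5 samples, 2507 in frame and 1143 out of frame against 2345 and 1088. Igkv1-135 (67609713 to 67610508, forward strand, deletion) took 1.11, 1.05, 6.47, 5.89 and 5.20% of in-frame counts and 2.19, 1.32, 8.85, 5.53 and 8.69% out of frame. Its log2 fold change was -0.50 ± 0.17 (SE, edgeR adjusted p 0.0345), with -0.67 within replicates 1 and 2 and -0.38 within replicates 3 to 5, called in 1 of 5 fits with a sample left out. The spread between replicates 1 and 2 and replicates 3 to 5 in Igkv8-16 and Igkv1-135 was present in both classes.

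The last 5 germline bases of the V end were not used to choose segments, and the tested segments were grouped by them after the calls had been seen, with no test. The most frequent end, cctcc, was carried by 38 of the 81 tested segments, of which 3 were called higher and 1 lower, with a median log2 fold change of 0.21. Over all 81 the shares called were 4.94% higher and 8.64% lower. The end cctca was carried by 4 segments, Igkv5-43, Igkv1-135, Igkv1-132 and Igkv1-133. All 4 had negative log2 fold changes, with a median of -0.72 and 2 called lower, and their median in-frame share was 55.3%. Over all 81 tested segments, 41 had a positive log2 fold change. The 2 called segments differed by remainder. Igkv5-43 had 39.4% of its counts in remainder 1 and 14.2% in remainder 2, and Igkv1-135 had 15.5 and 20.4%. Igkv1-132 had -0.79 (edgeR adjusted p 0.485) and was lower in frame in 5 of 5 samples. Igkv1-133 had -0.65 (edgeR adjusted p 0.477) and was lower in 3 of 5. Of the other called-lower segments, Igkv4-92 (cacca) and Igkv8-18 (ccccc) were each the 1 tested segment with that end. Igkv4-77 shared accca with others among 10 segments and Igkv6-15 shared cctct among 7, each the 1 called in its group, and Igkv8-24 had cctcc. The called-higher segments had cctcc, save Igkv8-27 with cctcg. In the rsCBE samples the medians were 0.26 for cctcc and -0.24 for cctca, but there Igkv1-132 (-0.02) and Igkv1-133 (0.05) lay near 0, so the lower median came from Igkv5-43 and Igkv1-135.

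A pseudogene, as annotated, does not encode a working chain in either frame. V segments annotated as pseudogenes took 0.999, 1.501, 2.45, 2.36 and 1.92% of in-frame counts and 3.06, 3.33, 4.74, 3.45 and 4.45% of out-of-frame counts, counted over V segments found in the annotation. The classes did not overlap, and the difference of -1.96 percentage points (SD 0.553) was negative in 5 of 5 samples (exact sign-flip p 0.0625). The in-frame share was 54.0% ± 2.07 over the 14 pseudogenes measured in the 2 classes and 71.7% ± 4.03 over the 96 other matched segments (SD, n = 5). Of the 5 pseudogenes tested singly, 1 was called lower by edgeR (Igkv4-77) and 0 higher, where 8.64% of all 81 tested segments were called lower and 4.94% higher. Their median log2 fold change was -0.93, against 0.02 over the 81.

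By position the means of the classes were close. Proximal segments (numbers 1 to 45 in the V name) took 40.1% ± 2.63 of in-frame and 41.5% ± 1.097 of out-of-frame counts, middle segments (46 to 90) 20.6% ± 2.20 and 20.8% ± 1.05, and distal segments (91 and above) 39.2% ± 3.86 and 37.7% ± 1.84 (SD, n = 5). Their adjusted exact sign-flip p were 0.75, 0.875 and 0.75. Distal segments were higher in frame by 3.99 and 5.58 percentage points in replicates 1 and 2 and lower by 0.0497 to 0.940 in replicates 3 to 5. V segments in the reverse orientation, which join by inversion, took 58.6% ± 2.48 in frame and 61.4% ± 2.36 out of frame, lower in frame in 4 of 5 samples (exact p 0.25). The difference was -5.89 and -8.25 percentage points in replicates 1 and 2, and -1.47, 2.25 and -0.802 in replicates 3 to 5. The mean of -2.83 became -1.48 without replicate 2, and -0.243 with each clonotype counted once. Among V families, Igkv9, Igkv10 and Igkv12 had a higher share in frame in 5 of 5 samples, and Igkv19 and Igkv18 a lower one. Igkv18 is the single segment Igkv18-36, with 25 in-frame and 80 out-of-frame counts, and it was not tested in WT and is named here after its values were seen.

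V-J pairs were then tested in the same way. Of 445 pairs measured, 154 were tested and 4 were called, 2.6% of those tested, all with a lower share in frame. No pair was called higher (0, with 16 at an unadjusted p under 0.05 by edgeR), and DESeq2 called 1 higher and 9 lower. The same sign in all 5 samples was found for 24 tested pairs higher in frame (15.6%) and 20 lower (13%). With each clonotype counted once, the low-count filter left 20 pairs to test, of which edgeR called 0 lower and 1 higher (6 at an unadjusted p under 0.05).

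Of the 4 pairs, 2 involved Igkv5-43. With Igkj5 it took 1.39, 1.18, 0.470, 0.785 and 0.417% of in-frame counts and 2.66, 4.02, 2.29, 1.72 and 1.93% of out-of-frame counts, with no overlap between the classes. The log2 fold change was -1.67 ± 0.26 (SE, edgeR adjusted p 0.00131), and this pair was called in all 5 fits that left out a sample. With each clonotype counted once it was -0.71 (edgeR adjusted p 0.0631). With Igkj4 it took 0.257% ± 0.185 and 1.14% ± 0.840, a log2 fold change of -1.99 ± 0.47 (SE, edgeR adjusted p 0.0255), called in 2 of those 5 fits. The other Igkv5-43 pairs did not pass, with -1.06 for Igkj2 and -1.16 for Igkj1 (edgeR adjusted p 0.156 and 0.236).

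Igkv4-92 with Igkj2 took 0.132, 0.276, 0.209, 0 and 0.108% of in-frame counts and 1.11, 1.31, 0.463, 0.859 and 0.657% of out-of-frame counts. Its log2 fold change was -2.51 ± 0.55 (SE, edgeR adjusted p 0.0216), and it was called in 2 of the 5 fits that left out a sample. Of its joins, 62.0% ± 22.2 were of remainder 1. The typical joints of this pair are printed to show where the frame is lost.
Igkv4-92 Igkj2, in frame: cagcaggggagtagtagcccGTACACG
Igkv4-92 Igkj2, out of frame: cagcaggggagtagtagcccaccaCACG
The out-of-frame form kept all 24 germline V bases, lost 3 J bases and shared 1 base between the ends, and it had 79 counts in 5 samples. The in-frame form had lost 4 V bases and 1 J base, and it had 28 counts in 4 samples. Igkv8-18 with Igkj2 took 0.0872% ± 0.0392 of in-frame and 0.417% ± 0.238 of out-of-frame counts, with -2.16 ± 0.52 (SE, edgeR adjusted p 0.0255) on 37 and 66 counts, and it was called in 0 of 5 fits with a sample left out.

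Between the remainders, 7 of 48 tested V-J pairs were called by edgeR (14.6%), 5 of them higher in remainder 1 (10.4%) and 2 lower (4.17%). The 5 were Igkv5-43 with Igkj5, Igkj2 and Igkj4, Igkv4-92 with Igkj2, and Igkv19-93 with Igkj2, with log2 fold changes of 2.09, 1.88, 1.89, 2.62 and 1.59. The 2 lower were Igkv8-16 with Igkj1 (-1.62) and Igkv3-2 with Igkj1 (-1.77). Of the 4 pairs called between the frames, 3 were thus also called between the 2 out-of-frame kinds, and both contrasts use the same out-of-frame joins. Without replicate 2 or without replicate 3, 0 of these pairs were called, and without replicates 1, 4 and 5 in turn 3, 8 and 4 were.

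The 5 rsCBE samples, which did not enter the WT calls, were put through the same test. All 11 V segments called in WT had the same sign there, and all 11 were called, against a background of 34.5% of 87 tested segments called in rsCBE, 14.9% higher and 19.5% lower. All 4 V-J pairs were called as well, against 34.5% of 194 tested pairs, 19.1% higher and 15.5% lower. Igkv5-43 had a log2 fold change of -1.53 in rsCBE (edgeR adjusted p 4.44e-07), Igkv4-92 -1.35, Igkv6-15 -1.15 and Igkv14-126 0.80. Of the 81 segments tested in WT, 57 had the same sign in rsCBE. The difference between the genotypes was itself tested, and 0 of 92 V segments were called for it by edgeR, with 5 at an unadjusted p under 0.05 and a smallest adjusted p of 0.778. That test does not show that the genotypes are alike.

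**Figure D5:**
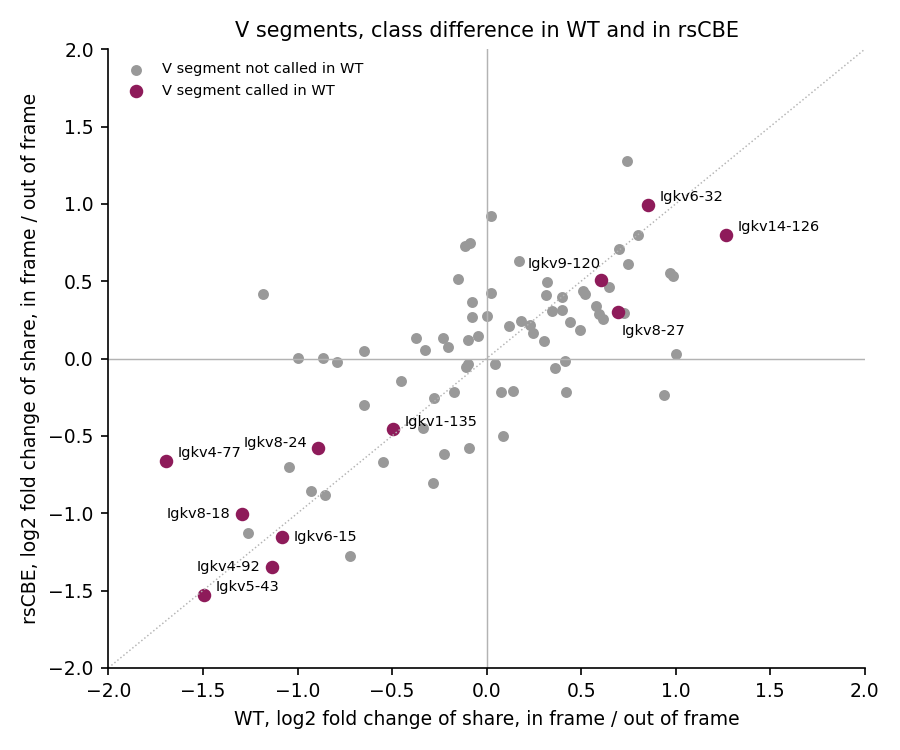
Log2 fold change of the V segment share, in frame over out of frame, in WT (horizontal axis) and in rsCBE (vertical axis), for the 81 V segments tested in WT. Coloured points are the 11 segments called in WT by edgeR and the dotted line marks equal values. All 11 lie on the same side of 0 in both genotypes, with Igkv5-43 at -1.495 and -1.53.

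For J segments, Igkj5 was lower in frame in rsCBE by 8.56 percentage points ± 1.42 (SD, n = 5), in 5 of 5 samples, against 4.88 ± 3.98 in WT. The gap between the genotypes, -3.68, had p 0.0794 by exact permutation over the 10 samples (adjusted 0.397 over 5 J segments). WT replicate 4 decided the call, since leaving it out gave -5.45 and, by the same exact permutation, an adjusted p of 0.0397. Igkj1 was higher in frame by 4.96 in rsCBE and 3.27 in WT, Igkj2 by 5.50 and 3.82, and Igkj4 was lower by 1.88 and 2.20. The Igkj1 difference in WT was 2.04 without WT replicate 4 and 4.86 without WT replicate 5, and the gap between the genotypes in Igkj1, 1.69, became 2.92 and 0.107. None of these differences between the genotypes passed, with adjusted exact permutation p of 0.794, 0.536 and 0.881. Igkj1, which was lower in frame in 1 WT sample, was higher in frame in 5 of 5 rsCBE samples.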

How the data were processed

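Amplicon libraries of kappa transcripts were sequenced as paired reads of 151 bases, per the labels. The authors deposited whole-number counts per library, V call, J call and CDR3, with no normalization. The aligner and V-J caller are not given in the sources used here, and mm10 is named in the submitters' processing notes. Counts of parts a and b were added, and 49 duplicate lines were merged. V and J ends came from GENCODE M21 (GRCm38), which matched 112 of 114 V segments and gave 111 V ends.

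V segments and V-J pairs were tested with edgeR 4.0.16 (R 4.3.3): quasi-likelihood F-test, sample as block, library size equal to the class total, factors of 1, filterByExpr, Benjamini-Hochberg at 0.05. Both classes come from the same library, so pairing is by construction. DESeq2 1.42.0 was an alternative. Shares were compared by two-sided exact sign-flip tests, and genotypes by exact permutation. On simulated data, the V fit (85 segments, 20 changed by a log2 fold of 1.5) recovered 100% of the changes and called 1.54% of the others. The V-J fit (155 pairs, 30 changed) recovered 96.7%. The simulation gave all features 1 fixed spread, held no extreme sample and changed only features above the median share. Its change was larger than that of most V segments called in WT. The rates are therefore not error rates of the calls reported here.

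Named V segments were the 5 most used and those called with 1 sign in all 5 samples, and named pairs were the called ones of smallest p with 1 sign in all 5 samples. Members, lists and tests were chosen with earlier results of these data known. Whether a count is a read or a molecule is not stated. Intervals treat counts as independent and cover at most counting error.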

Additional observations from a re-analysis of the deposited data

Results flagged for a closer look

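Dixon's test for an extreme value (gap over range above 0.71 for 5 samples) was applied to 48 groups, and 5 had an extreme sample. Chance gives about 1 in 20, or 2.4 of 48. All 5 were WT replicate 4, which had 3109 counts, fewer than any other WT sample, and the part of depth in these values was not tested. Its Igkj3 share in frame was 0.344%, against 0 to 0.0115% in the other samples. Its Igkj5 difference, in frame minus out of frame, was -11.96 percentage points, against -3.75 to -2.63. Its J4 plus J5 share out of frame was 59.2%, against 45.9 to 49.2%. Remainder 1 made up 54.5% of its out-of-frame counts, against 47.9 to 48.9%. Its in-frame share of Igkv8-24 was 11.9%, against 58.2 to 69.4%.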

How the results depend on the processing

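Shares. With remainder 2 alone as out of frame, the differences of Igkj1, Igkj4, Igkj5 and J4 plus J5 changed sign to -5.82, 0.897, 0.171 and 1.07 percentage points, the last 3 near 0 (exact sign-flip p 0.438, 0.938 and 0.688), and Igkj3 to 0.0325. With replicate 4 left out as well they were -7.96, 0.752, 2.64 and 3.39, and Igkj3 0.00712. Igkj3 also reversed with clonotypes counted once (0.0231), clonotypes of 1 count left out (0.0120), stop rows kept (0.000367), part b alone (0.00794), replicates 3 to 5 alone (0.0374), and ranged from -0.0643 to 0.0317 when 1 replicate was left out. The share of middle V segments reversed with clonotypes counted once (1.58) and clonotypes of 1 count left out (0.629), and ranged from -1.01 to 0.186 when 1 replicate was left out. With no replicate block, the exact permutation test passed for J4 plus J5 (-7.09), pseudogenes (-1.96) and Igkj1 between the remainders (-18.54). The edgeR fit of J called Igkj2 (0.22) and Igkj5 (-0.22, log2). With clonotypes counted once, the joint differed by 0.575 V bases lost, 0.0761 J bases lost (reversed), -0.263 shared bases and 0.606 unmatched bases (reversed), and the genotype difference reversed for Igkj3 (0.00467) and Igkj4 (-0.260). When 1 sample was left out, that of Igkj3 ranged from -0.0569 to 0.0391, of Igkj4 from -0.250 to 1.32 and of Igkj5 from -5.45 to -3.11.

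V segments called higher and lower numbered 4 and 7. They numbered 2 and 5 with clonotypes counted once, 1 and 2 with clonotypes of 1 count left out, 4 and 3 with part b alone, 0 and 0 in replicates 1 and 2, 0 and 1 in replicates 3 to 5, 0 and 0 with no replicate block (12 at an unadjusted p under 0.05), 4 and 4 by DESeq2, 1 and 3 against remainder 1, 0 and 0 against remainder 2, and 13 and 17 in rsCBE. Leaving out 1 replicate gave 0 to 5 and 1 to 6. V-J pairs numbered 0 and 4, but 1 and 0 with clonotypes counted once (20 tested, against 154), 0 and 2 with clonotypes of 1 count left out, 2 and 6 with part a alone, 2 and 5 with part b alone, 11 and 16 in replicates 1 and 2, 0 and 0 with no replicate block, 1 and 9 by DESeq2, and 37 and 30 in rsCBE. Leaving out 1 replicate gave 0 to 1 and 1 to 3. Between remainders, no replicate block gave 0 V segments, and 1 pair higher and 0 lower; clonotypes counted once gave 0 and 0 of only 3 pairs tested, against 48. Leaving out 1 replicate gave 0 to 1 V segments lower, 0 to 5 pairs higher and 0 to 3 lower. Igkv8-16 reversed to 0.0665 in replicates 3 to 5. The causes were not tested. The use of rsCBE, the robust spread and the fit without remainder 1 and replicate 4 were added after the data were seen. Replicate 4 had the fewest WT counts, and V segments outside the 81 did not pass the low-count filter.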
